A study of Mus musculus with 10 samples.

Results

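T cell and cytotoxic lymphocyte genes were examined in hippocampal RNA of female P301S mice given dihydrotestosterone (DHT) or an empty implant. The set held 10 genes of the 56884 in the count table, listed by symbol with earlier results of these data known: *Cd3d*, *Cd3e*, *Cd3g*, *Cd4*, *Cd8a*, *Cd8b1*, *Trbc2*, *Pdcd1*, *Nkg7* and *Gzmb*. All 10 had at least 1 count. Counts were very low, with 165 reads over all 10 genes in the 5 void libraries together and 464 in the 5 DHT libraries. *Pdcd1*, which encodes the inhibitory receptor PD-1, rose about 8-fold and was the only member that passed the test. The cells that made the *Pdcd1* RNA were not identified. The transcripts of the CD3 chains, *Cd4*, *Cd8a*, *Cd8b1*, *Nkg7* and *Gzmb* had higher means with DHT without passing it. *Trbc2* had a lower mean and did not pass it either. The groups overlapped for *Cd3e*, *Cd4*, *Cd8a*, *Cd8b1*, *Trbc2* and *Gzmb*. The summed T cell receptor gene segments differed by less than the spread between DHT mice.

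A T cell recognizes peptide on an MHC molecule through the variable chains of its receptor, which carry no signalling tail of their own and pass the signal through the CD3 gamma, delta, epsilon and zeta chains. CD4 and CD8 are coreceptors that bind MHC class II and class I and bring the kinase LCK to the receptor. Cytotoxic T cells and natural killer cells kill with granules that hold granzymes and perforin, and PD-1 on an activated T cell dampens receptor signalling when it meets its ligands PD-L1 or PD-L2. Few T cells are found in healthy brain tissue, and they are known to enter it in mouse models of tauopathy.

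All 10 mice were ovary-intact P301S (PS19) females, in which the *Prnp* promoter drives human Tau with the P301S mutation, so the void mice carry the transgene too and no mouse without it was compared. A 10 mm implant packed with DHT, an androgen that aromatase cannot convert to estrogen, or an empty one (void) was placed at 6 months of age in 5 mice each. Hippocampi were taken after perfusion, 12 weeks later, at 9 to 9.5 months, and 1 mRNA library was made per mouse. Mice are named here by their group and the replicate number in the labels (void 4, 5, 9, 10 and 11, DHT 1, 2, 3, 5 and 6). The number after S in the labels was lower for every void library than for every DHT library. What it stands for is not stated, and it cannot be told apart from the treatment.

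Total counts per library ranged from 27188854 to 47113661. A count of 0 in 1 library allows up to 3 counts (counting error only), which corresponded to 0.0628 to 0.111 CPM (counts scaled to a common library size after TMM normalization). All 8 hippocampal neuron markers passed the expression filter, with summed levels of 3191 to 3647 CPM in void mice and 2996 to 3572 CPM in DHT mice. The 12 choroid plexus markers all passed it as well. Their sum spanned 359 to 3250 CPM in void mice and 3893 to 5706 CPM in DHT mice, so these markers moved with the group.

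*Trbc2* has a near-identical neighbour, *Trbc1*, and both encode the constant part of the T cell receptor beta chain, so their sequences bear on how far their counts can be told apart. Over 518 aligned coding bases of the transcripts Trbc1-202 and Trbc2-201 (GENCODE M21) they differed at 23 positions, an identity of 95.6%. The first 259 bases were identical, and another 122 identical bases followed the first difference. Reads were 100 bases long and paired. A single read from those stretches fits either gene, although its mate may cover a difference. How such reads were counted is not given in the sources used here. Bases 399 to 518, the 120-base window with most differences, hold 19 of them, shown in capitals.
Trbc1: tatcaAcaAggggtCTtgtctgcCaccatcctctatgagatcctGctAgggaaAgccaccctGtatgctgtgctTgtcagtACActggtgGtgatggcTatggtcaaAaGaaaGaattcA
Trbc2: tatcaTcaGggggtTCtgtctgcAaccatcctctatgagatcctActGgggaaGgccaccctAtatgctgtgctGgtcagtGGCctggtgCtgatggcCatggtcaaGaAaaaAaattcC

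The promoter of *Pdcd1* is shown because it is the member whose RNA rose. It is the window from 250 bases before to 50 bases after the start site on the minus strand of chr1:94052504-94052803 (RefSeq, GRCm38.p6), and capitals mark 2 adjoining matches to the NFAT core GGAAA, read here on the opposite strand.
Pdcd1 promoter: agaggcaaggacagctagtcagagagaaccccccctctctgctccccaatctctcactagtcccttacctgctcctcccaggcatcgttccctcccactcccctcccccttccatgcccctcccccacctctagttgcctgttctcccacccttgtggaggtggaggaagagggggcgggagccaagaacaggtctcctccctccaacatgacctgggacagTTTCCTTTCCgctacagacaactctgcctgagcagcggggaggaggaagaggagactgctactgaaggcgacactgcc

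Promoter entries were found for 7 of the 10 members, and 6 of these 7 held GGAAA on either strand, as did 61.3% of all 32851 promoters of that length. The interferon-gamma activated site pattern TTCNNNGAA was in the promoters of *Cd3d*, *Nkg7* and *Gzmb*, 3 of 7, against 8.30% of all promoters. The interferon-stimulated response element core, written as 2 copies of GAAA with any 2 bases between them, was in 0 of the 7 and in 3.44% of all promoters. All 3 patterns were searched on both strands, and matches of different patterns may overlap. These are matches of letters in a window and show no binding.

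To ask which lymphocyte transcripts differed between DHT and void mice, counts were compared by edgeR's quasi-likelihood test, and a gene counted as called when its Benjamini-Hochberg adjusted p was under 0.05 and its log2 fold change beyond 1. Only *Cd4* passed edgeR's expression filter, so the other 9 members were read from the same model fitted to all 35326 genes with a count. In that fit 1 of the 10 members was called higher and 0 were called lower, where 1% of all genes were called higher and 0.00849% lower. A total of 9 members had a higher mean CPM with DHT, as had 52.1% of all genes. At an unadjusted p under 0.05, 6 members were higher, against 7.97% of all genes. The median log2 fold change was 1.72 over the members and 0.01 over all genes fitted. In hippocampal tissue a change in the number of cells of a type and a change in RNA per cell cannot be told apart. This holds for each gene below, whether higher or lower.

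**Figure D1:**
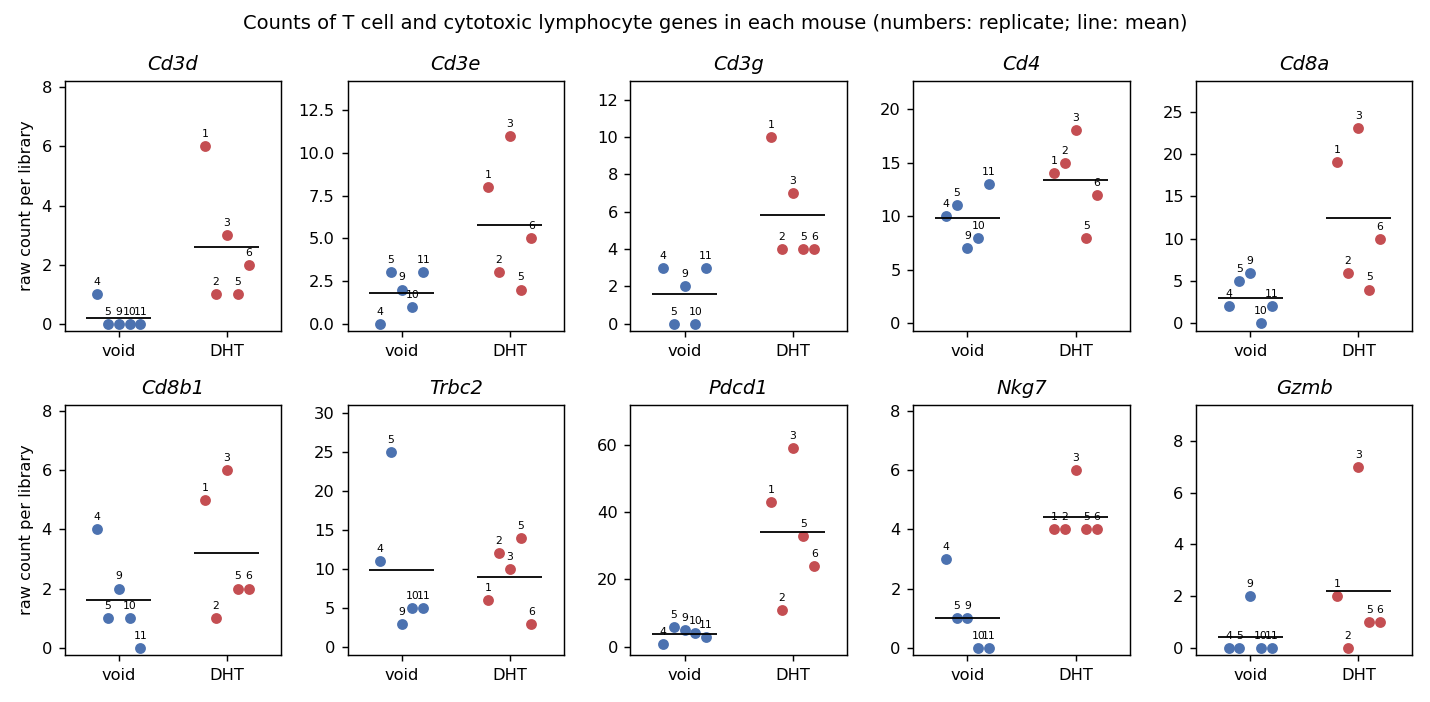
Raw counts of each of the 10 genes (vertical axis, reads per library) in the 5 void mice (blue) and 5 DHT mice (red), with the replicate number above each point and a line at the group mean. *Pdcd1* lies at 1 to 6 reads in void mice and at 11 to 59 reads in DHT mice, while *Cd4* and *Trbc2* overlap between the groups.

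*Pdcd1* (ENSMUSG00000026285) had 1, 6, 5, 4 and 3 counts in void mice 4, 5, 9, 10 and 11. It had 43, 11, 59, 33 and 24 counts in DHT mice 1, 2, 3, 5 and 6. Every DHT mouse lay above every void mouse, with DHT 3 and 1 highest and DHT 2 lowest. The mean rose from 0.121 ± 0.0667 to 0.876 ± 0.394 CPM (SD, n = 5 each), and the summed counts of 19 and 170 gave a depth-adjusted ratio of 7.99 (95% interval 4.96 to 13.6, exact binomial, counting error only). Its log2 fold change was 2.91 ± 0.46 (SE), with an adjusted p of 0.00219 by edgeR. A two-sided exact permutation test of log2 CPM gave p = 0.00794, the smallest that 5 mice against 5 allow. *Cd3d*, *Cd3g* and *Nkg7*, which were not called, reached the same unadjusted permutation p, so it does not set *Pdcd1* apart. The remaining members lay between 0.0476 (*Cd8a*) and 0.897 (*Trbc2*) by that permutation test. When single mice were left out, the value stayed between 2.57 and 3.16. Without a void mouse or without DHT 2, *Pdcd1* passed the expression filter, on its counts in DHT mice alone. The edgeR adjusted p was 0.00148 to 0.0358 in those runs. Without DHT 1, 3, 5 or 6 it was read from the fit on every gene with a count, with an edgeR adjusted p of 0.00368 to 0.00515. The adjusted p-values of the 2 kinds of run are therefore not comparable. Without DHT 1 and 3 together the value was 2.44 with an edgeR adjusted p of 0.0103. With a choroid plexus score as covariate the value was 3.0 and the edgeR adjusted p 0.728, so the call was lost. That score was at most 6.16 in void mice and at least 6.51 in DHT mice (mean log2 CPM). This fit therefore cannot tell the score apart from the treatment.

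The 3 CD3 chains carry the signal of the T cell receptor and mark T cells. *Cd3d* (ENSMUSG00000032094) had 1 count in void 4 and 0 in the other 4 void mice, against 6, 1, 3, 1 and 2 counts in DHT mice 1, 2, 3, 5 and 6. The groups did not overlap in CPM, but void 4 and DHT 2 each rested on 1 read. Its count ratio was 11.6 with an interval of 1.74 to 493, and its log2 fold change of 2.96 ± 0.97 (SE, edgeR adjusted p = 0.136) did not pass. It was 2.36 without DHT 1 and 4.33 without void 4.

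*Cd3e* (ENSMUSG00000032093) had 0, 3, 2, 1 and 3 counts in the void mice in the same order and 8, 3, 11, 2 and 5 in the DHT mice. Only 3 of the 5 DHT mice lay above every void mouse, and the log2 fold change was 1.42 ± 0.61 (SE, edgeR adjusted p = 0.361). *Cd3g* (ENSMUSG00000002033) had 3, 0, 2, 0 and 3 counts against 10, 4, 7, 4 and 4. Its groups did not overlap, although the margin between the highest void and the lowest DHT mouse was 1 read, and its log2 fold change was 1.64 ± 0.61 (SE, edgeR adjusted p = 0.223). *Cd3d*, *Cd3g*, *Pdcd1* and *Nkg7* were the 4 members whose groups did not overlap with DHT higher, as for 2.99% of all genes fitted.

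Summed over the 3 chains, CD3 counts were 4, 3, 4, 1 and 6 in the void mice and 24, 8, 21, 7 and 11 in the DHT mice. Every DHT mouse lay above every void mouse, and the mean was 0.104 ± 0.0526 CPM with void and 0.366 ± 0.189 CPM with DHT (SD, n = 5 each). The sum is a description, since the genes were chosen with earlier results of these data known.

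*Cd8a* (ENSMUSG00000053977), the alpha chain of CD8, had 2, 5, 6, 0 and 2 counts in the void mice and 19, 6, 23, 4 and 10 in the DHT mice. DHT 1, 3 and 6 lay above every void mouse, while DHT 2 and 5 lay within the void range. Its mean was 0.0895 ± 0.0796 CPM with void and 0.313 ± 0.184 CPM with DHT (SD, n = 5 each). The log2 fold change was 1.80 ± 0.56 (SE, edgeR adjusted p = 0.114), and without void 9 alone it was 2.23 with an adjusted p of 0.0466.

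*Cd8b1* (ENSMUSG00000053044), the beta chain found on most conventional CD8 T cells, had 4, 1, 2, 1 and 0 counts against 5, 1, 6, 2 and 2. The groups overlapped, and the log2 fold change of 0.80 ± 0.66 (SE, edgeR adjusted p = 0.618) fell to -0.0036 without DHT 1 and 3. With 1 mouse left out it lay between 0.48 (without void 11) and 1.26 (without void 4). *Cd4* (ENSMUSG00000023274), the coreceptor of helper T cells, was the only member abundant enough for the filter. It had 10, 11, 7, 8 and 13 counts in the void mice and 14, 15, 18, 8 and 12 in the DHT mice. Its level was 0.293 ± 0.0792 CPM with void and 0.345 ± 0.0599 CPM with DHT (SD, n = 5 each), no DHT mouse lay above every void mouse, and the log2 fold change was 0.26 ± 0.25 (SE, edgeR adjusted p = 0.681). The difference between the changes of *Cd8a* and *Cd4* was not tested.

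*Trbc2* (ENSMUSG00000076498) had 11, 25, 3, 5 and 5 counts in the void mice and 6, 12, 10, 14 and 3 in the DHT mice. Void 5 was the highest of all 10 mice, and the groups overlapped throughout. The means of 0.292 ± 0.288 and 0.235 ± 0.127 CPM (SD, n = 5 each) differed by less than the spread between mice, with a log2 fold change of -0.30 ± 0.53 (SE, edgeR adjusted p = 0.872). Without void 5 it was 0.47, so its direction rested on that mouse. The near-copy *Trbc1* had at most 1 count in each void mouse and 1, 1, 5, 0 and 1 counts in the DHT mice, with a log2 fold change of 1.56 ± 0.97 (SE, edgeR adjusted p = 0.602).

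The variable, diversity and joining segments of the T cell receptor are joined only in T cells, and 52 of their 254 genes in the table had a count. Counts per gene do not show whether a segment was joined. Summed over these genes, there were 18, 13, 14, 13 and 14 counts in the void mice and 21, 17, 29, 23 and 8 in the DHT mice. The level was 0.425 ± 0.0359 CPM with void and 0.505 ± 0.178 CPM with DHT (SD, n = 5 each), so that DHT 6 lay below every void mouse and DHT 1, 3 and 5 above. The segment sum therefore differed between the groups by less than the spread between DHT mice. The single most abundant segment gave 18.8% of all segment counts.

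The cytotoxic members were near the counting limit in void mice. *Nkg7* (ENSMUSG00000004612), a granule membrane protein of cytotoxic T and natural killer cells, had 3, 1, 1, 0 and 0 counts against 4, 4, 6, 4 and 4. The DHT mice lay close together at 0.114 ± 0.0106 CPM and above every void mouse, where the mean was 0.0253 ± 0.0265 CPM (SD, n = 5 each). Its log2 fold change was 1.88 ± 0.64 (SE, edgeR adjusted p = 0.163).

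*Gzmb* (ENSMUSG00000015437), the protease granzyme B, had 2 counts in void 9 and 0 in the other void mice, against 2, 0, 7, 1 and 1 counts in the DHT mice. DHT 3 held most of its reads, and the log2 fold change was 1.97 ± 1.03 (SE, edgeR adjusted p = 0.535). Without DHT 3 the value was 1.02 and without void 9 it was 4.13. The count ratio of 4.91 had an interval of 1.07 to 45.6, which covers counting error and not the spread between mice.

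**Figure D2:**
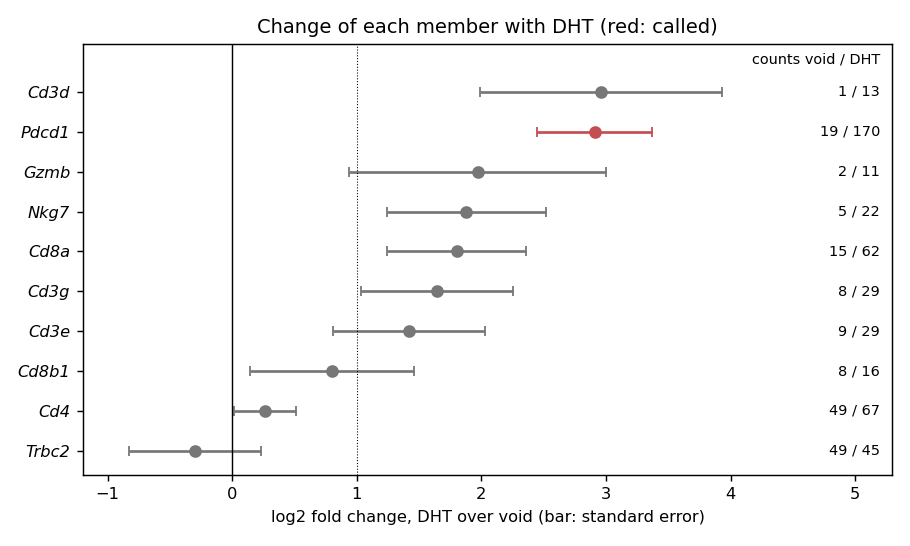
Log2 fold change of DHT over void (horizontal axis) with its standard error for each gene, the dotted line marking the limit of 1 and the numbers at the right the summed counts of void and DHT mice. *Pdcd1*, in red at 2.91, is the only gene called, while *Cd3d* at 2.96 rests on 1 and 13 counts.

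Levels between genes were compared as CPM per kilobase of annotated exon. With void, *Trbc2* was highest at 0.421 ± 0.416, followed by *Cd4* at 0.0726 ± 0.0196 and *Pdcd1* at 0.0627 ± 0.0345, and *Cd3d* was lowest at 0.00233 ± 0.00521 CPM per kilobase (SD, n = 5 each). No neighbours in the void order differed by more than the larger of their SDs. With DHT, *Pdcd1* was highest at 0.454 ± 0.204, followed by *Trbc2* at 0.340 ± 0.183, *Nkg7* at 0.125 ± 0.0116 and *Cd8a* at 0.0861 ± 0.0506 CPM per kilobase. Of the neighbours in the DHT order, only *Trbc2* and *Nkg7* differed by more than the larger SD. The 3 CD3 chains lay between 0.0358 and 0.0463 CPM per kilobase with DHT and between 0.00233 and 0.0139 with void, below *Pdcd1* in both groups.

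Over all 10 members there were 35, 52, 30, 19 and 29 counts in the void mice and 117, 57, 150, 73 and 67 in the DHT mice. The sum was 0.980 ± 0.392 CPM with void and 2.38 ± 0.771 CPM with DHT (SD, n = 5 each), a difference of 1.40 CPM, and 4 of 5 DHT mice lay above every void mouse. *Pdcd1* gave 11.5% of the members' counts in void mice and 36.6% in DHT mice. Without *Pdcd1* the difference was 0.648 CPM, from 0.859 ± 0.353 to 1.51 ± 0.421 CPM, and 2 of 5 DHT mice lay above every void mouse. At least 1 read was found for 5 to 9 of the 10 genes in each void mouse and for 9 or 10 in each DHT mouse.

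**Figure D3:**
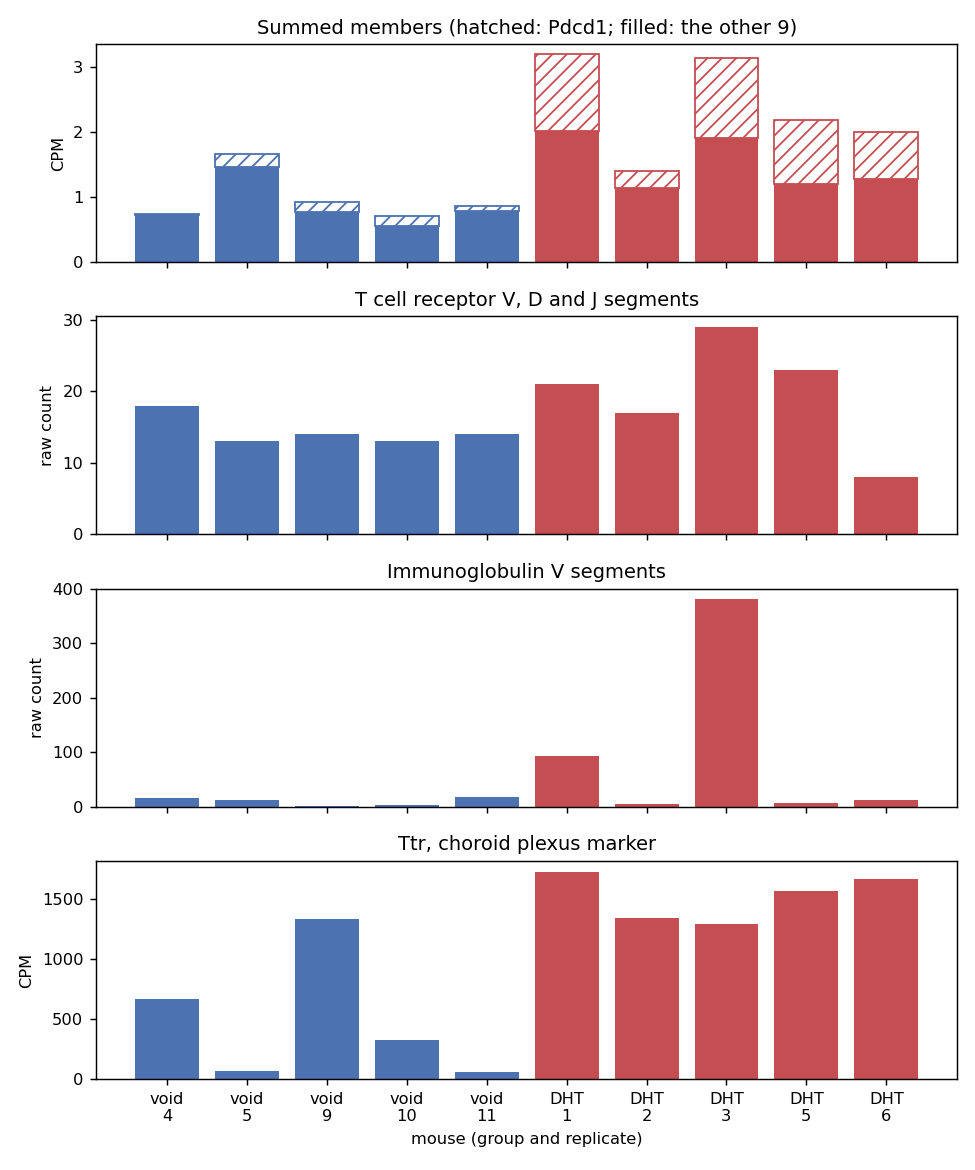
Bars from 0 for each mouse, void in blue and DHT in red, of the summed CPM of the 10 genes (hatched part *Pdcd1*), the raw counts of T cell receptor and of immunoglobulin V segments, and the CPM of *Ttr*, a transcript of choroid plexus epithelium. DHT 1 and 3 are highest for the 10 genes at 3.19 and 3.14 CPM and hold 93 and 381 immunoglobulin V segment counts, while *Ttr* is between 62.4 and 1334 CPM in void mice and between 1288 and 1727 CPM in DHT mice.

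DHT 1 and 3 were the highest of the DHT mice for the sum and for *Cd3d*, *Cd3e*, *Cd3g*, *Cd8a*, *Cd8b1*, *Pdcd1* and *Gzmb*. They were also highest for immunoglobulin V segments, with 93 and 381 counts against 5, 7 and 12 in DHT mice 2, 5 and 6 and 1 to 18 in void mice. Without both mice, the sum differed by 0.844 CPM and *Cd8a* had a log2 fold change of 1.02. The part of these B lineage transcripts in the members' values was not tested.

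Markers of other tissue moved with the group as well. The choroid plexus markers given above all had positive log2 fold changes, with a median of 2.11, and 0 of 12 passed. *Ttr* was at 669, 65.0, 1334, 328 and 62.4 CPM in void mice 4, 5, 9, 10 and 11 and at 1727, 1341, 1288, 1568 and 1664 CPM in the DHT mice. The 7 microglia markers all passed the filter and summed to 268 to 306 CPM in void mice and 333 to 478 CPM in DHT mice. Their part in the members' values was not tested. With the choroid plexus score as covariate 0 of all genes were called, and the log2 fold changes of *Cd8b1*, *Trbc2* and *Gzmb* changed sign, to -0.64, 1.31 and -0.56. The score did not overlap between the groups, so neither the lost calls nor these signs can tell it apart from the treatment.

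Related genes were described in 6 lists of 104 genes in all. Of these, 57 passed the expression filter, and 17 of the 57 were called higher and 0 lower, where 2.11% of all 17622 genes tested were called higher and 0.0227% lower. The median log2 fold change over all genes tested was 0.00934. Without DHT 1 the lists had 10 genes called higher, without DHT 3 they had 9, without void 11 they had 11, and without DHT 1 and 3 together 2. In the same runs, in this order, 179, 234, 196 and 33 of all genes were called higher, in place of 371 with all mice. The drop was therefore not particular to the lists.

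Of the 23 genes of the T cell receptor complex and its signalling, 9 were tested, 5 had positive log2 fold changes with a median of 0.05, and 0 were called. *Lcp2*, the adaptor SLP-76 that myeloid cells also use, was at 4.07 ± 0.153 CPM with void and 6.05 ± 1.25 CPM with DHT (SD, n = 5 each). Its log2 fold change of 0.57 ± 0.14 (SE, edgeR adjusted p = 0.0334) did not reach the fold limit. The kinase *Zap70*, which binds the phosphorylated CD3 chains, had a log2 fold change of 0.20 ± 0.19 (SE, edgeR adjusted p = 0.675). *Skap1*, an adaptor of T cell adhesion, was at -0.39 ± 0.23 (SE, edgeR adjusted p = 0.440). The constant gene of the receptor alpha chain, *Trac*, named after its value was seen, had a log2 fold change of -0.01 ± 0.19 (SE, edgeR adjusted p = 0.990). With every gene with a count, all 23 could be fitted, 18 were positive with a median of 0.40, and 0 were called.

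Of 18 genes of cytotoxic and natural killer cells, 4 were tested and 0 called. *Gzmm*, granzyme M, was at 1.35 ± 0.175 CPM with void and 1.41 ± 0.127 CPM with DHT. *Gzmk*, granzyme K, was at 0.876 ± 0.328 and 0.674 ± 0.332 CPM, and *Eomes*, a transcription factor of cytotoxic cells that is also used by neuron precursors, at 1.32 ± 1.03 and 1.99 ± 1.55 CPM (SD, n = 5 each). Each of the 3 differed by less than the spread between mice. In the fit on every gene with a count 15 of the 18 were positive, with a median of 0.90, and 0 were called.

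Of 15 genes of homing, residency and memory, 8 were tested, 6 were positive with a median of 0.14, and 0 were called. *Cd44*, a hyaluronan receptor of memory T cells and of glia, was at 8.63 ± 3.54 CPM with void and 16.0 ± 5.04 CPM with DHT, with a log2 fold change of 0.89 ± 0.27 (SE, edgeR adjusted p = 0.0787). *S1pr1*, the receptor by which lymphocytes leave tissue and which endothelium and glia also make, and *Itga4*, the alpha chain of the integrin VLA-4, had log2 fold changes of -0.07 and -0.23.

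Checkpoint and regulatory genes included the ones nearest to PD-1 in function. Of 17, 11 were tested, 9 were positive with a median of 0.48, and 2 were called higher. *Lag3*, an inhibitory receptor that binds MHC class II and is also made in brain cells, was at 3.93, 5.49, 6.76, 7.78 and 3.20 CPM in the void mice and at 25.9, 8.43, 19.6, 20.5 and 20.3 CPM in the DHT mice. Every DHT mouse lay above every void mouse, with DHT 2 lowest as for *Pdcd1*, and the log2 fold change was 1.81 ± 0.30 (SE, edgeR adjusted p = 0.00779).

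*Cd86*, a ligand of CD28 on antigen-presenting cells, rose by 1.10 ± 0.17 on the log2 scale (SE, edgeR adjusted p = 0.00739). *Vsir*, which encodes the checkpoint protein VISTA, had a log2 fold change of 0.48 and an adjusted p of 0.0218, short of the fold limit. *Tox*, a transcription factor of exhausted T cells that neurons also make, was at 22.9 ± 2.26 CPM with void and 18.6 ± 2.13 CPM with DHT (log2 fold change -0.30, SE 0.10, edgeR adjusted p = 0.102). The ligands of PD-1, named after their values were seen, had log2 fold changes of 0.81 for *Cd274* (SE 0.19, edgeR adjusted p = 0.0325) and 1.02 for *Pdcd1lg2* (SE 0.91, edgeR adjusted p = 0.633).

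Genes that attract T cells or let them adhere had the largest median of the 6 lists, 2.08, with 8 of 10 tested genes called higher. *Cxcl10*, an interferon-induced ligand of the chemokine receptor CXCR3 on T cells, was at 0.148, 1.21, 0.868, 0.590 and 0.389 CPM in the void mice and at 5.49, 2.12, 9.67, 4.72 and 4.91 CPM in the DHT mice. Every DHT mouse lay above every void mouse, and the log2 fold change was 3.11 ± 0.48 (SE, edgeR adjusted p = 0.00739). *Cxcl16*, the ligand of CXCR6, rose by 1.86 ± 0.28 (SE, edgeR adjusted p = 0.00732), and *Ccl3*, an inflammatory chemokine, by 2.50 ± 0.44 (SE, edgeR adjusted p = 0.00958). *Ccl3* had 4 to 22 counts in void mice and 42 to 95 in DHT mice, so it passed the expression filter mainly on its counts in DHT mice. In the fit on every gene with a count, 6 of the 15 genes of this list were called higher, where 1% of all genes were. The endothelial adhesion molecule *Icam1* rose by 1.01 ± 0.20 (SE, edgeR adjusted p = 0.0128). *Vcam1* was at 0.72 with an adjusted p of 0.0119, short of the fold limit, and *Cxcl12* at -0.07 with an adjusted p of 0.736.

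All 15 tested genes of antigen presentation, of 16, had positive log2 fold changes, with a median of 0.95, and 7 were called higher. Called class II genes, whose product CD4 T cells read, included *H2-Aa*, *H2-Ab1* and *H2-Eb1*, while *H2-DMa* and *H2-DMb1*, which help load class II with peptide and are named after their values were seen, were not called at 0.11 and 0.72. *H2-Aa* was at 1.37, 1.82, 1.74, 2.58 and 1.71 CPM in the void mice and at 14.2, 3.30, 14.5, 22.1 and 10.7 CPM in the DHT mice. Its log2 fold change was 2.83 ± 0.40 (SE, edgeR adjusted p = 0.00625), beside 2.68 for *H2-Ab1* and 2.14 for *H2-Eb1*. The class I heavy chain *H2-K1*, read by CD8 T cells, rose by 1.16 ± 0.23 (SE, edgeR adjusted p = 0.0134), and *B2m*, its light chain, was at 0.94 with an adjusted p of 0.00903, short of the fold limit.

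**Figure D4:**
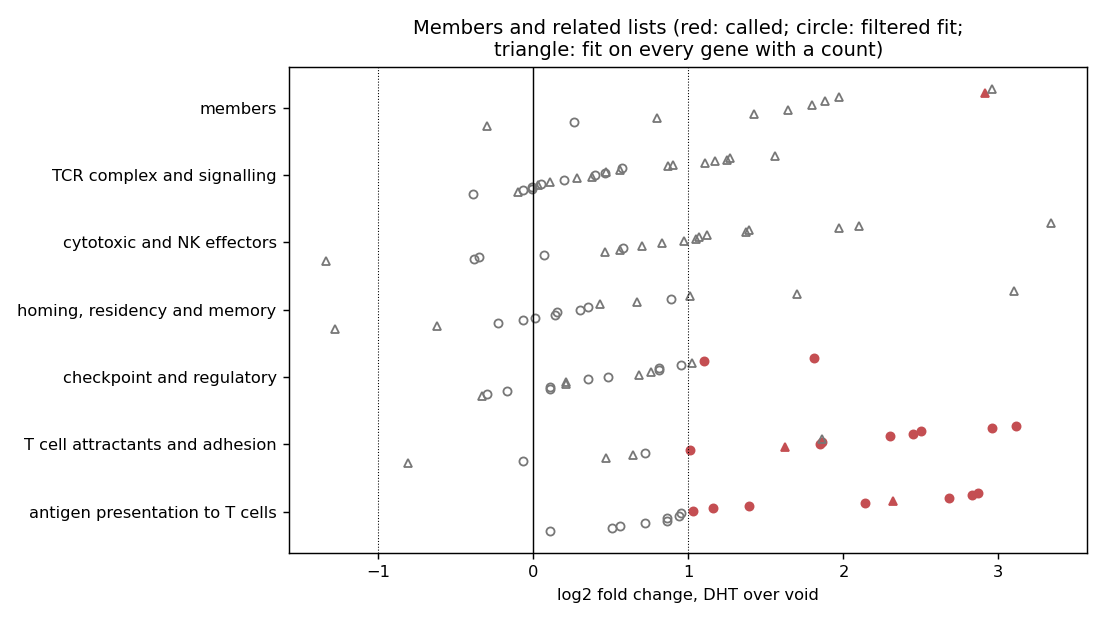
Log2 fold change of DHT over void (horizontal axis, dotted lines at the limits) for each gene of the 10 members and of 6 related lists, circles from the fit on filtered genes and triangles from the fit on every gene with a count, red where called. Called genes stand among attractants, antigen presentation and checkpoint genes and at *Pdcd1*, and none among the T cell receptor, cytotoxic and homing lists.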

How the data were processed

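Hippocampal RNA of 10 mice, 5 void and 5 DHT, was sequenced as 1 library per mouse from 500 ng of RNA. The values are raw gene counts as deposited by the authors. Per the submitters' notes and methods, reads were cleaned with HTStream and aligned with STAR 2.7.10b. The methods name mm10 and the notes a later mouse build, so no coordinates were taken from the files. The counter, annotation release, strand and handling of reads that match several genes are not given in the sources used here, so a gene and its antisense partner cannot be told apart. Of 56884 identifiers 51948 had a symbol in GENCODE M21.

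Groups came from the labels. The members and gene lists were chosen with earlier results of these data known. edgeR 4.0.16 (R 4.3.3) was run with TMM, filterByExpr by group (minimum count 10) and the robust quasi-likelihood test with Benjamini-Hochberg adjustment. An SE is the size of the log2 fold change over the root of its F statistic. Members below the filter came from the same model on every gene with a count. Log2 CPM for permutation tests used a prior count of 2. Ratio intervals are 95% exact binomial intervals. PCR duplicates cannot be recognized in counts, so intervals and count limits cover counting error only. Named genes were every member, *Trbc1* and, from each list, the genes called (the 3 with the lowest p where more were called) and the 3 with the largest summed count. DESeq2 1.42.0, the tool of the study, was an alternative. Other alternatives were size factors, filters, no fold limit, a choroid plexus covariate (mean log2 CPM of 12 markers, pseudocount 0.5) and leaving out each mouse. Leaving out DHT 1 and 3, and the sum without *Pdcd1*, were added after seeing the data. The tests were also run on simulated data, whose outcome is not given here and is used for no result above. Results for 2 genes of the planned lists are not reported here, and those genes were left out of the list counts and sums.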

Additional observations from a re-analysis of the deposited data

Results flagged for a closer look

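Groups of 5 mice were examined for a highest or lowest mouse whose gap to the nearest other mouse exceeded 0.71 of the group's range. Of 176 groups 17 did, where chance gives about 1 in 20, or 8.8, if the groups are independent and normally spread. Many of them hold a few counts or share genes, so 17 against 8.8 does not show an excess. The numbers below are that gap as a share of the range.

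Among the lymphocyte genes, *Cd3d* was highest in void 4 (gap 1.0, on 1 count) and in DHT 1 (gap 0.726), *Cd3g* was highest in DHT 1 (gap 0.726), and *Cd4* was lowest in DHT 5 (gap 0.824). *Trbc2* was highest in void 5 (gap 0.802), and so was the sum over all members (gap 0.761). *Gzmb* was highest in void 9 (gap 1.0, on 2 counts), and *Trbc1* in DHT 3 (gap 0.716).

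DHT 1 stood highest for red blood cell markers (gap 0.746), *Hbb-bs* (gap 0.723) and choroid plexus markers (gap 0.763). Void 5 stood highest for *Hbb-bs* (gap 0.763) and *Slco1a4* (gap 0.744) and lowest for *Zbtb20* (gap 0.795). *Igkc* was highest in DHT 3 (gap 0.780), *Cxcl16* was lowest in DHT 2 (gap 0.752), and *Ccl3* was highest in void 10 (gap 0.804). These are single mice against 4 others of their group, and the cause was not tested.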

How the results depend on the processing

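For members other than *Pdcd1*, 126 of 132 values under the alternatives kept their direction and side of the threshold. *Cd8a* passed without void 9 (2.23), and 5 values changed sign: *Cd8b1* -0.64, *Trbc2* 1.31 and *Gzmb* -0.56 with the choroid plexus covariate, *Trbc2* 0.47 without void 5, and *Cd8b1* -0.0036 without DHT 1 and 3. *Pdcd1* lost its call with that covariate (3.0, edgeR adjusted p = 0.728). It failed the expression filter because DHT 2 was at 0.271 CPM, so 0 members were called among filtered genes, and 1 with no filter and with DESeq2. DESeq2 called 7 genes lower in place of 4. A minimum of 10 counts in every library left 2 lower genes and 11 pathway genes higher. The covariate, which cannot be told apart from the treatment, left 0 genes higher, 0 lower and 0 pathway genes. Without DHT 1 and 3 there were 33 higher, 2 lower and 2 pathway genes higher. With no fold limit there were 914 higher, 44 lower and 28 pathway genes higher. The summed difference was 0.648 CPM without *Pdcd1*. Leaving out 1 mouse at a time gave 179 (without DHT 1) to 510 higher genes in place of 371, with 196 without void 11 and 234 without DHT 3. It gave 0 to 6 lower genes, 0 to 1 members called higher, 9 to 23 pathway genes higher, 9 to 10 members with a higher mean, a summed difference of 1.16 to 1.65 CPM, 0.0221 to 0.147 CPM for the receptor segments, 2.57 to 3.16 for *Pdcd1* and -0.61 to 0.47 for *Trbc2*. The causes were not tested. The paper states that littermates were randomized to treatment, but the labels name no litter and no pairs, so no paired analysis was possible. For members at a few counts per group, such as *Cd3d* and *Gzmb*, depth limits the precision to the wide count intervals given above.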

Other observations

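Other cells of blood and brain borders were read from marker lists. Neutrophil markers summed to 0.643 ± 0.318 CPM with void and 0.624 ± 0.320 CPM with DHT, monocyte markers to 1.11 ± 0.620 and 1.49 ± 0.342 CPM, and red blood cell markers to 1.36 ± 0.792 and 1.36 ± 0.632 CPM (SD, n = 5 each). Border macrophage markers summed to 8.29 ± 5.15 and 9.18 ± 3.34 CPM, and endothelial markers to 244 ± 35.7 and 244 ± 17.0 CPM. In each of these lists 0 genes were called, and the group means differed by less than the larger of the SDs.

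B cell markers summed to 15.4 ± 2.30 CPM with void and 26.0 ± 12.8 CPM with DHT, with 0 genes called. *Igkc*, the constant region of the immunoglobulin kappa light chain, had 2 to 15 counts in void mice and 11 to 453 in DHT mice, with a log2 fold change of 3.58 ± 1.01 (SE, edgeR adjusted p = 0.0718). DHT 3 alone gave 69.3% of all immunoglobulin V segment counts. Meningeal fibroblast markers summed to 115 ± 27.1 and 119 ± 25.1 CPM, and among them *Igf2*, a growth factor that choroid plexus also makes, had a log2 rise of 1.68 ± 0.28 (SE, edgeR adjusted p = 0.00896).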
